A study of Mus musculus with 2 samples.

Results

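Expression of 7 formative and primed epiblast factors (*Fgf5*, *Otx2*, *Pou3f1*, *Zic2*, *Foxd3*, *Sall2* and *Sox11*) was compared between shLuc and shKdm5b ES cells at 72 h without LIF. The genes were chosen by name and found by their symbol among the 21935 gene symbols of the deposited tables, and each of the 7 had 1 transcript entry. The cells were of the mouse embryonic stem cell line R1, kept on irradiated embryonic fibroblasts with LIF and differentiated, per the labels, in low-attachment dishes in the same medium without LIF. shKdm5b ES cells carried a lentiviral short hairpin RNA against *Kdm5b*, the gene of a histone H3K4 demethylase, and the control shLuc ES cells carried a hairpin against luciferase. A single library of polyadenylated RNA represented each condition, so library and hairpin cannot be told apart, and the conditions could not be tested against a spread between replicates.

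When mouse ES cells leave the naive state they pass through a formative state that resembles the epiblast of the embryo just after implantation, and later a primed state in which they can respond to lineage signals. OTX2 and the POU factor encoded by *Pou3f1* (also called OCT6) act with OCT4 at enhancers that become active in this transition. *Fgf5*, a secreted growth factor of the fibroblast growth factor family, is the classic marker of the epiblast after implantation, *Zic2* encodes a zinc-finger factor and *Foxd3* a forkhead factor of early pluripotent cells, and *Sall2* and *Sox11* encode a spalt-type zinc-finger protein and a SoxC-group protein that are also known from neural tissue.

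The promoters of the most abundant of these genes, *Otx2*, and of the genes with the highest and the lowest ratio between conditions, *Fgf5* and *Sall2*, are shown because their base composition differs widely. The 250 bases before the RefSeq start of each gene (build GRCm38.p6) are written in the direction of transcription, with every CpG dinucleotide in capitals. The *Fgf5* window is chr5:98253934-98254183 on the plus strand, the *Otx2* window chr14:48662735-48662984 on the minus strand and the *Sall2* window chr14:52328671-52328920 on the minus strand. Of the RefSeq starts given for *Otx2* and *Sall2*, the start nearest to that of the deposited transcript was used, at a distance of 138 bases for *Otx2* and 92 bases for *Sall2*.
Fgf5: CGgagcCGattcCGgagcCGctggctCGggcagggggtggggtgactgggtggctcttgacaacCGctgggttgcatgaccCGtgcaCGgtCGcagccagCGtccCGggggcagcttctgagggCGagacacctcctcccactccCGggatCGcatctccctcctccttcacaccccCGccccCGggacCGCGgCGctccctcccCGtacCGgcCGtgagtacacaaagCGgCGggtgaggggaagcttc
Otx2: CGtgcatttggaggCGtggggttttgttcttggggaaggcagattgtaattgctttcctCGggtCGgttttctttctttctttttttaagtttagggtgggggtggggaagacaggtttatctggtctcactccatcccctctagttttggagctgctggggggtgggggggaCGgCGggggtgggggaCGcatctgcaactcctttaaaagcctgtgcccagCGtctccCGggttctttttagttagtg
Sall2: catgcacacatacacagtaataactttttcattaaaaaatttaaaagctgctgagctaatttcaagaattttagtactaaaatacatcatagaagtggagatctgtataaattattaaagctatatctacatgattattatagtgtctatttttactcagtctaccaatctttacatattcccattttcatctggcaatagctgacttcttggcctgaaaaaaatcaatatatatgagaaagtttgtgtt

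The *Fgf5* window held 24 CpG dinucleotides at a GC content of 70.8%, the *Otx2* window 9 at 53.6% and the *Sall2* window 0 at 28%, against a median of 6 CpG dinucleotides and a GC content of 52.4% over 32851 mouse promoter windows of this length. *Foxd3* (21 CpG dinucleotides, 65.6% GC) and *Sox11* (17, 58%) were on the CpG-rich side. Another annotated start of *Sall2*, 12439 bases from that of the deposited transcript, had 6 CpG dinucleotides at a GC content of 64.4%, so the low GC content belongs to the start shown. The other annotated starts of *Otx2* had 14, 8 and 6 CpG dinucleotides, and of these windows 1 held an OTX core and 1 a TATA box. Promoter entries were found for 5 of the 7 genes and not for *Pou3f1* and *Zic2*. The 250-base windows were searched on both strands for the octamer ATGCAAAT bound by POU factors, the OTX core TAATCC, the GC box GGGCGG and the TATA box TATAAA, none of which overlapped another in the windows shown. The *Fgf5* window held 1 GC box, which 32.7% of all windows hold, and the *Sall2* window 1 TATA box, which 12.4% hold. *Sox11* had 2 GC boxes, and the *Otx2* window shown and that of *Foxd3* had no match. The octamer, in 1.60% of all windows, and the OTX core, in 6.25%, were in none of the 5 windows nearest to the deposited starts. Such matches describe letters and not binding.

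The libraries held 78172698 (shLuc) and 72702698 (shKdm5b) mapped reads of 50 bases, of which 67.9% and 66.3% lay on genes. The mapped reads fell on 25736755 distinct positions in the shLuc library (32.9% of its reads) and on 14639660 for shKdm5b (20.1%). Levels are given as RPKM, the reads of a transcript per kilobase of its length and scaled to the reads of the library, which allows genes to be compared with each other. The target gene *Kdm5b* had an RPKM of 104 in shLuc and 3.01 in shKdm5b ES cells. The label of the cells was checked on 8 ES cell and epiblast markers, which all had an RPKM above 1. They summed to an RPKM of 1926 in shLuc and 1513 in shKdm5b ES cells. Their median log2 ratio of shKdm5b to shLuc was 0.05, with 4 above 0 and 4 below. Of the 8 markers, *Pou5f1* (OCT4) had an RPKM of 619 in shLuc and 182 in shKdm5b ES cells. *Sox2* had 237 and 272, and *Nanog* 90.2 and 85.0.

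All 7 factors were well above an RPKM of 1 in both libraries, with 64766 reads together in shLuc and 57080 in shKdm5b ES cells. In shLuc ES cells, *Otx2* had an RPKM of 149, *Zic2* 62.8, *Pou3f1* 32.9, *Fgf5* 22.6, *Foxd3* 21.3, *Sall2* 19.0 and *Sox11* 9.82. In shKdm5b ES cells, *Otx2* had an RPKM of 111, *Zic2* 63.8, *Pou3f1* 43.7, *Fgf5* 31.1, *Foxd3* 17.3, *Sall2* 11.5 and *Sox11* 11.3. The order of the levels was therefore the same in both conditions, while the distances between neighbours changed. *Otx2* was 2.38 times as high as *Zic2* in shLuc ES cells and 1.74 times as high in shKdm5b ES cells. *Fgf5* and *Foxd3* were close together in shLuc ES cells, with a ratio of 1.06 (95% counting interval 1.02 to 1.11), and were 1.80-fold apart in shKdm5b ES cells. *Sall2* was 1.93 times as high as *Sox11* in shLuc ES cells, but in shKdm5b ES cells their ratio was 1.02 (0.98 to 1.06), so that the last places of the order could not be told apart.

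**Figure D1:**
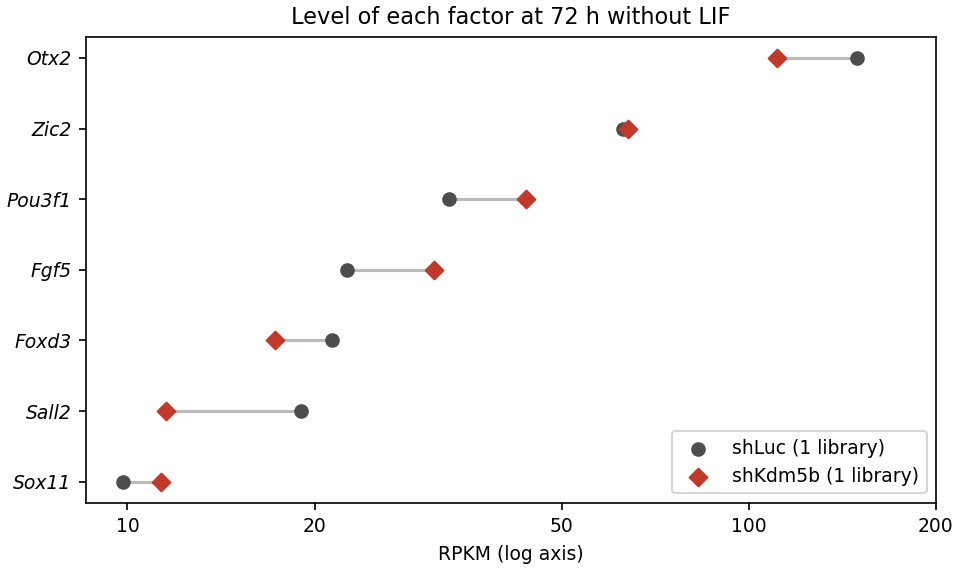
RPKM of the 7 factors (log axis) in the shLuc library (grey circles) and the shKdm5b library (red diamonds), with 1 library per condition and no error bar. The order from *Otx2* (149 and 111) down to *Sox11* (9.82 and 11.3) is the same in both, with *Otx2*, *Foxd3* and *Sall2* lower in the shKdm5b library.

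As a share of the summed RPKM of the 7 genes (318 in shLuc and 290 in shKdm5b ES cells), *Otx2* made up 47.0% in shLuc and 38.3% in shKdm5b ES cells. The shares of *Pou3f1* (10.3% and 15.1%) and *Fgf5* (7.11% and 10.7%) were larger in shKdm5b ES cells, and that of *Sall2* was smaller (5.98% and 3.98%). Among all 11804 genes with an RPKM above 1 in at least 1 library, *Otx2* stood at the 98.1st percentile of RPKM in shLuc and the 95.8th in shKdm5b ES cells, and *Sox11* at the 52.8th and the 61.0th.

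Between conditions, the 7 factors did not move in a single direction. A gene was called higher or lower when its RPKM + 0.1 differed by more than 1.5-fold and its RPKM was above 1 in at least 1 library, the fold and RPKM thresholds of the study, with no test. By this rule 48.3% of the 11804 genes were called, 16.3% higher and 32.0% lower in shKdm5b ES cells, whereas 1 of the 7 factors (14.3%) was called, *Sall2*, which was lower, and 0 were called higher. The median log2 ratio of shKdm5b to shLuc was 0.02 over the factors and -0.21 over all 11804 genes. By library totals the spread was smaller over the factors (SD 0.44) than over all genes (SD 0.84). The median absolute log2 ratio was 0.41 over the factors and 0.56 over all genes by library totals. After the correction for transcript GC content given below, these values were 0.44 and 0.43. In bulk samples such as these, fewer cells of a type and less RNA per cell cannot be told apart. Endoderm markers (7 genes, of which *Gata4*, *Gata6* and *Dab2* were called lower) summed to an RPKM of 24.1 in shLuc and 4.35 in shKdm5b ES cells. Most of this sum came from *Dab2* (18.5 and 3.15). *Afp* had 0 reads in the shKdm5b library, which allows an RPKM of up to 0.0198 (3 reads). The part of the endoderm markers in the ratios of the 7 factors was not tested. The neural markers (12 genes) summed to 98.8 and 96.9, the primitive streak and mesoderm markers (5 genes) to 3.17 and 4.84 and the markers of feeder fibroblasts (9 genes) to 5.49 and 6.43. Most of the neural sum came from *Stmn2* (log2 ratio 0.41) and *Tubb3* (-1.37), which moved in opposite directions. Of the 6 neural markers above an RPKM of 1, 5 had a log2 ratio above 0 and 1 below, with a median of 0.30. After the GC correction their median was 0.58, with 3 called higher and 1 lower. By library totals *Nes* and *Eomes* were called higher (log2 ratio 0.83 and 0.70) and *Tubb3* lower. Of these markers, *Neurog2*, *Dcx* and *Postn* had 0 reads in the shKdm5b library and only 1, 2 and 3 reads in the shLuc library.

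*Fgf5*, the only ligand among the 7 (NM_010203, 3 exons, at 98254184 to 98277030 of chromosome 5, with positions of all genes by GENCODE M21 on GRCm38), had 4414 reads in the shLuc and 5653 in the shKdm5b library. Its level was 138% of the shLuc level, a log2 ratio of 0.46 (95% counting interval 0.40 to 0.52). Reads that share a position are not independent molecules, and such intervals cover counting error only. An interval widened by the mean number of reads per distinct position in each library (3.04 and 4.97), chosen after seeing the data, was 0.35 to 0.57. *Fgf5* did not pass the 1.5-fold rule, but its ratio exceeded those of 79.5% of the 11804 genes.

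The POU gene *Pou3f1* (NM_011141, 1 exon, chromosome 4 from 124656807 to 124660655), whose first bases overlap the antisense gene *Gm2164*, had 7736 and 9575 reads. By library totals its log2 ratio of 0.41 (widened interval 0.33 to 0.50) was close to that of *Fgf5*. After the GC correction given below, *Pou3f1* was at 1.36 and *Fgf5* at 0.44. The homeobox gene *Otx2* (NM_144841, 3 exons, whole gene on chromosome 14 from 48657677 to 48673819) had 20108 and 13902 reads and was at 74.3% of its shLuc level, a log2 ratio of -0.43 (widened interval -0.49 to -0.36). *Otx2* and *Pou3f1*, both partners of OCT4, thus had ratios on opposite sides of 0, and neither passed the 1.5-fold rule. The *Otx2* locus overlaps the antisense gene *Otx2os1*, which had 14 and 19 reads, and strand was not stated for the counting. *Otx2os1* begins at 48668708, upstream of the start of the deposited *Otx2* transcript, which lies 138 bases from the start shown above. The overlap is thus with the whole gene and not with the counted transcript.

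*Zic2* (NM_009574, 3 exons, chromosome 14 from 122475435 to 122479852) had 14567 and 13762 reads, and its level was 102% of the shLuc level. Its log2 ratio was 0.02, and it was the only factor whose interval included 0 (widened interval -0.05 to 0.09). *Sox11* (NM_009234, 1 exon, chromosome 12 from 27334264 to 27342574) had 6488 and 6963 reads and a log2 ratio of 0.20 (0.11 to 0.30). The ratios of *Zic2* and *Sox11* were the smallest in size of the 7.

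*Foxd3* (NM_010425, 1 exon, chromosome 4 from 99656299 to 99658622), which holds the annotated miRNA gene *Gm23366*, had 3952 and 2986 reads and was at 81.2% of its shLuc level, a log2 ratio of -0.30 (widened interval -0.44 to -0.16), and its direction turned after the GC correction. *Sall2* (NM_015772, 2 exons, chromosome 14 from 52311172 to 52328762) had 7501 and 4239 reads and was 1.64-fold lower, at 60.8% of its shLuc level. Its log2 ratio of -0.71 (widened interval -0.83 to -0.61) lay above those of 26.8% of the 11804 genes, so falls of this size were common in the shKdm5b library. When the libraries were scaled to a median log2 ratio of 0, a shift of -0.17, or by the TMM method, a shift of -0.22, *Sall2* no longer passed (log2 ratio -0.55 and -0.50). Under the same scalings *Fgf5* was called higher (0.63 and 0.68), as was *Pou3f1* under TMM only (0.63). These scalings also changed the split over all genes, from 1921 higher and 3781 lower to 2590 and 3009 with the median and 2816 and 2758 with TMM.

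**Figure D2:**
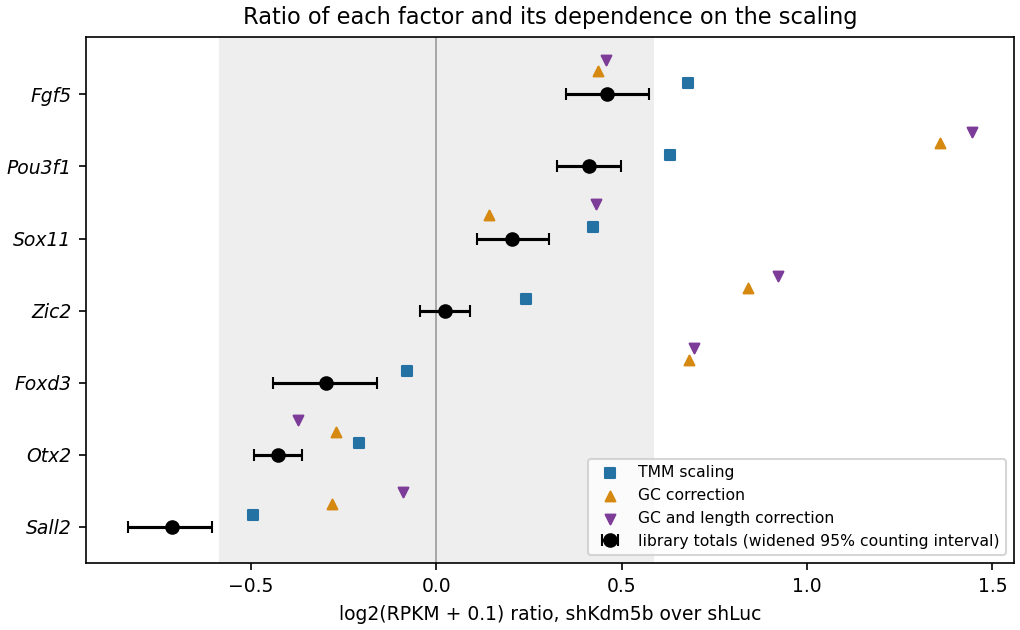
log2 ratio of RPKM + 0.1, shKdm5b over shLuc, for each factor, with the value by library totals and its widened 95% counting interval (black) and the values after TMM scaling (blue squares), the GC correction (orange triangles) and the GC and length correction (purple triangles). The grey band spans ratios within 1.5-fold, and of the black points that of *Sall2* (-0.71) lies outside it, while *Pou3f1*, *Zic2* and *Foxd3* lie above it after the GC corrections.

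The factors differ in the GC content of their transcripts, and over 11535 genes with a known GC content the log2 ratio went down with it (Spearman correlation -0.53, across genes of the same pair of libraries and given as a description). *Sox11* (46.5%), *Fgf5* (47.0%) and *Otx2* (49.5%) were below the median transcript GC content of 50.5%, and *Sall2* (53.2%), *Zic2* (59.9%), *Pou3f1* (63.9%) and *Foxd3* (65.1%) above it. At the GC content of *Fgf5* and *Sox11* a lowess curve through all genes was near 0 (0.02 and 0.06), whereas it was at -0.95 for *Pou3f1*, -0.82 for *Zic2* and -0.98 for *Foxd3*. These 3 GC-rich genes therefore stood well above the genes of their own composition. GC content was taken from the matched GENCODE M21 transcript, whose length differed from that of the deposited entry. It was 3849 against 3011 bases for *Pou3f1*, 2440 against 2967 for *Zic2* and 2324 against 2373 for *Foxd3*. Of the 222 genes within 2 percentage points of GC content of *Pou3f1*, 4.05% were called higher and 68.9% lower, with a median log2 ratio of -0.95. Of the 1133 genes near *Zic2*, 4.06% were called higher and 64.7% lower, and of the 124 genes near *Foxd3*, 0.806% and 70.2%.

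After the curve was taken out, the log2 ratio was 1.36 for *Pou3f1*, 0.84 for *Zic2* and 0.68 for *Foxd3*. These 3 were called higher and 0 of the 7 lower, with 18.0% of all genes called higher and 18.8% lower after the same correction. *Sall2* lost its call (-0.28). *Fgf5* hardly moved (0.44), and *Sox11* (0.14) and *Otx2* (-0.27) were within 1.5-fold as before. The same 3 factors were called higher when transcript length was corrected for in addition to GC content (*Pou3f1* 1.44, *Zic2* 0.92, *Foxd3* 0.69), with 14.5% of all genes. The median of the factors was 0.44 after the first and 0.46 after the other correction, with -0.04 and -0.03 over all genes. Whether the relation with GC content arose in the libraries or in the cells cannot be told apart with 1 library per condition, and the part of the unequal number of distinct positions was not tested.

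**Figure D3:**
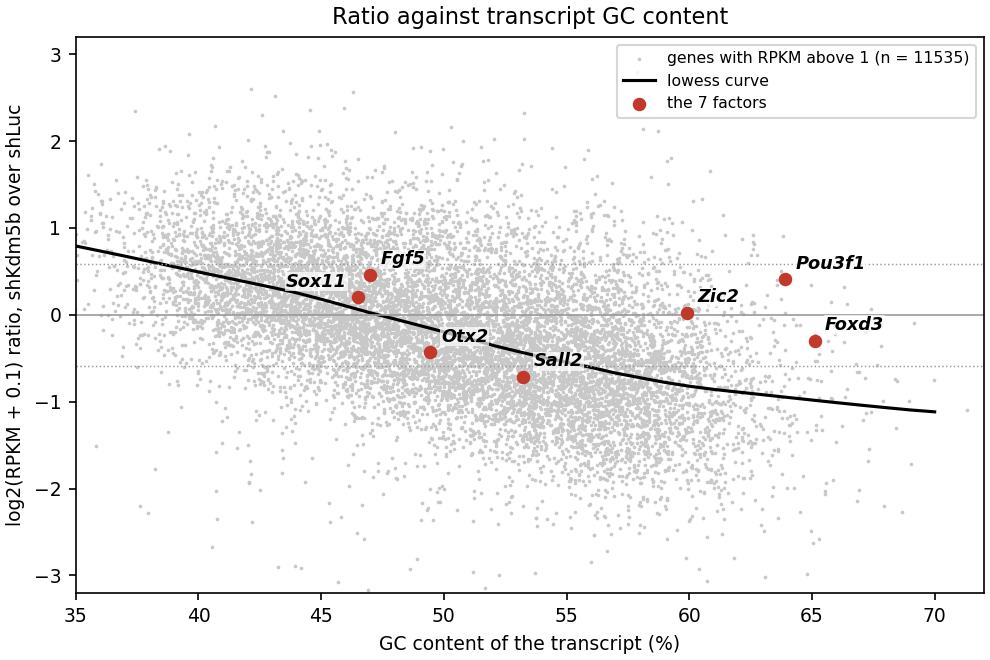
log2 ratio of RPKM + 0.1 against the GC content of the transcript (%) for 11535 genes (grey), with the lowess curve (black), the 1.5-fold limits (dotted) and the 7 factors (red). *Fgf5* and *Sox11* lie near or above the curve where it is close to 0, *Otx2* and *Sall2* lie below it, and *Pou3f1*, *Zic2* and *Foxd3* lie far above it at a GC content of 59.9% to 65.1%.

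Ratios between the factors within a library do not depend on how the libraries are scaled. Of the 21 pairs, 9 changed their ratio by more than 1.5-fold between conditions and 2 by more than 2-fold. *Fgf5* was 1.19 times as high as *Sall2* in shLuc and 2.69 times as high in shKdm5b ES cells, a 2.27-fold change. The RPKM of *Pou3f1* over that of *Sall2* was 1.73 and 3.79, a 2.19-fold change. *Otx2* exceeded *Fgf5* by 6.61-fold in shLuc and 3.57-fold in shKdm5b ES cells, so the distance between the most abundant factor and the ligand was 1.85-fold smaller. *Fgf5* and *Pou3f1* kept nearly the same ratio, with a change of 1.03-fold (log2 0.05, counting interval -0.02 to 0.12). Composition bears on these pairs as well, and 4 pairs had transcripts within 3 percentage points of GC content, of which 3 changed by more than 1.5-fold. The pair nearest in composition, *Fgf5* over *Sox11*, changed by 1.19-fold. *Pou3f1* over *Foxd3*, both single-exon genes, was at 1.54 in shLuc and 2.53 in shKdm5b ES cells, a 1.64-fold change. The others were *Fgf5* against *Otx2* (1.85-fold) and *Sox11* against *Otx2* (1.55-fold). *Sox11* against *Otx2* was no longer past 1.5-fold after the GC correction (log2 change 0.41). *Pou3f1* over *Foxd3* (0.68) and *Fgf5* against *Otx2* (0.71) still were. After the GC correction 12 pairs were past 1.5-fold, and 6 pairs were past it both with and without the correction.

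**Figure D4:**
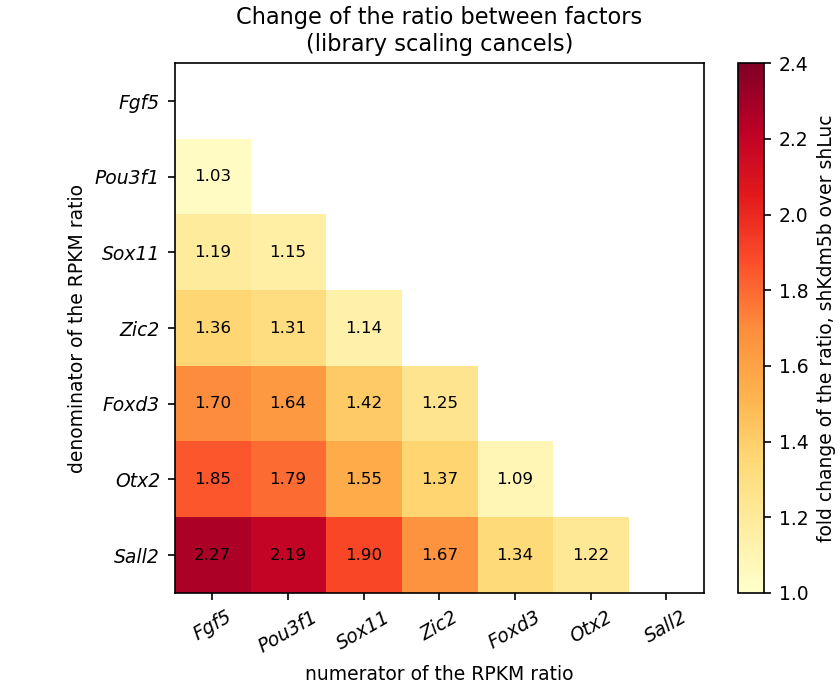
Fold change between conditions of the RPKM ratio of each pair of factors (numerator on the x axis, denominator on the y axis, genes ordered by their log2 ratio so that each value is above 1). No GC correction was applied. The values range from 1.03 for *Fgf5* over *Pou3f1* to 2.27 for *Fgf5* over *Sall2*, and the 2 values above 2 are in the row of *Sall2*.

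The factors belong to families whose members can have related roles, and 8 of their 19 listed paralogues had an RPKM above 1. By the 1.5-fold rule 0 of these 8 were called higher and 2 lower, *Sox4* and *Zic5*, beside 16.3% higher and 32.0% lower over all genes, and their median log2 ratio was -0.37. After the GC correction 1 was called higher and 1 lower, beside 18.0% and 18.8% of all genes, and the median was 0.17. *Sox4*, a SoxC gene like *Sox11*, had an RPKM of 37.8 in shLuc and 12.5 in shKdm5b ES cells (log2 ratio -1.59, after the GC correction -1.31). *Sox12*, the remaining SoxC gene, was at 24.6 and 18.2 (-0.43). The share of *Sox11* in the RPKM of the 3 SoxC genes was 13.6% in shLuc and 27.0% in shKdm5b ES cells.

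*Zic5* lies next to *Zic2* on chromosome 14, with 9758 bases between their starts, and had an RPKM of 10.2 in shLuc and 6.38 in shKdm5b ES cells (log2 ratio -0.67, after the GC correction -0.49 and no longer called), beside 62.8 and 63.8 for *Zic2*. The GC content of *Zic5* came from a matched transcript of 4767 bases, against 2383 bases in the deposited entry. Among the spalt genes, *Sall2* was called lower by library totals while *Sall4*, a pluripotency factor, had an RPKM of 65.4 and 76.1 (0.22), *Sall1* 83.1 and 67.4 (-0.30) and *Sall3* 1.70 and 2.22 (0.36). *Sall2* made up 11.2% of the RPKM of the 4 spalt genes in shLuc and 7.34% in shKdm5b ES cells. *Fgf4*, the ligand of naive ES cells in the subfamily of *Fgf5*, had an RPKM of 82.9 in shLuc and 58.4 in shKdm5b ES cells (-0.51), and the share of *Fgf5* in this subfamily was 21.4% and 34.8%. *Otx2*, *Pou3f1* and *Foxd3* had no paralogue above an RPKM of 1 and made up at least 98.1% of the RPKM of their families.

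**Figure D5:**
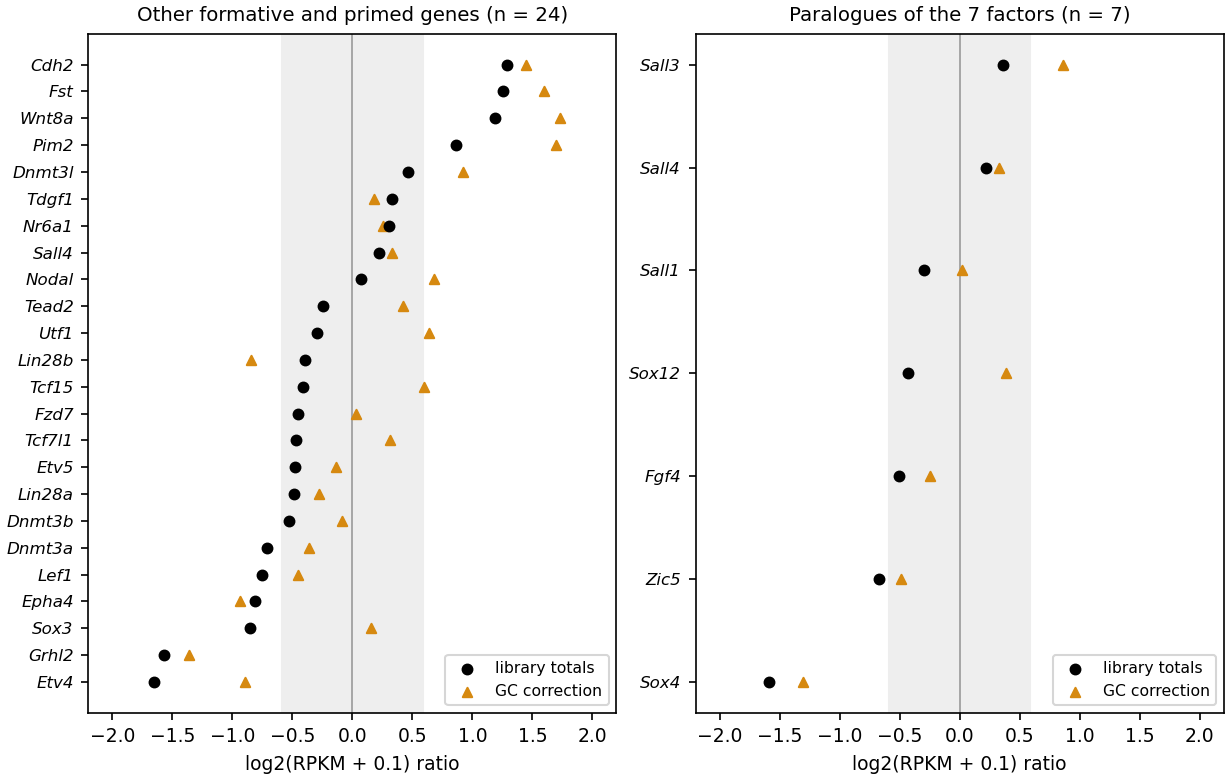
log2 ratio of RPKM + 0.1, shKdm5b over shLuc, for 24 other formative and primed genes (left) and for 7 paralogues of the 7 factors (right), by library totals (black) and after the GC correction (orange). The grey band spans ratios within 1.5-fold. *Cdh2*, *Fst*, *Wnt8a* and *Pim2* lie above it at the left and *Etv4* and *Grhl2* farthest below it, and *Sox4* stands apart at the right.

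Of 26 other genes listed for the formative and primed states, 25 had an RPKM above 1 in at least 1 library. By library totals 4 were called higher and 6 lower (40.0%, with 48.3% over all genes), and their median log2 ratio was -0.39. *Pim2*, a kinase, had an RPKM of 58.6 in shLuc and 106 in shKdm5b ES cells (log2 ratio 0.86). *Cdh2*, encoding N-cadherin, had 1.45 and 3.68 (1.29), *Fst*, an inhibitor of activin, 1.05 and 2.64 (1.26), and *Wnt8a*, a Wnt ligand, 0.54 and 1.36 (1.19), so 3 of the 4 genes called higher were of low level. The genes called lower were the DNA methyltransferase *Dnmt3a* (49.19 and 29.996, log2 ratio -0.71), the Wnt effector *Lef1* (39.8 and 23.5, -0.76), the ETS factor *Etv4* (14.1 and 4.42, -1.65), *Sox3* (6.24 and 3.42, -0.85), the grainyhead factor *Grhl2* (20.8 and 6.93, -1.57) and the ephrin receptor *Epha4* (6.30 and 3.55, -0.81). After the GC correction 8 were called higher and 4 lower, beside 18.0% and 18.8% of all genes, with a median of 0.25. The log2 ratio of *Sox3*, a GC-rich gene, turned to 0.15. The list thus held genes on both sides, as the 7 factors did.

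FGF signalling through ERK is the pathway in which *Fgf5* and *Fgf4* act, and 9 of 10 listed FGF receptors and ERK response genes had an RPKM above 1. Of these, 1 was called higher and 4 lower, with 48.3% of all genes called in either direction, and the median log2 ratio was -0.48. The genes named here were taken from the list after their values were seen. *Dusp6*, an ERK phosphatase, had an RPKM of 22.7 in shLuc and 38.1 in shKdm5b ES cells (0.75), whereas *Spry4*, an inhibitor of the pathway, had 38.9 and 14.4 (-1.43). *Egr1* (-0.97), *Fgfr4* (-0.84) and *Etv4* were the others called lower. After the GC correction 1 was called higher and 2 lower, beside 18.0% and 18.8% of all genes, with a median of -0.14. *Egr1* (-0.51) and *Fgfr4* (-0.17) were then no longer called. *Fgfr1*, the most abundant receptor, had an RPKM of 22.2 and 19.1 (-0.21).

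The naive and general pluripotency genes were measured in the same libraries. Of 13 naive genes with an entry, 1 was called higher (*Dppa3*) and 2 lower (*Esrrb* and *Nr0b1*), with a median log2 ratio of -0.14, beside 16.3% higher and 32.0% lower over all genes, and these names were likewise taken after their values were seen. After the GC correction 3 were called higher and 0 lower, beside 18.0% and 18.8% of all genes, with *Esrrb* at -0.34 and *Nr0b1* at -0.13. *Dppa3* was of low level, with an RPKM of 2.38 in shLuc and 6.12 in shKdm5b ES cells. Its call held after the GC correction (1.17) but not after the correction for GC and length (0.54). Of *Pou5f1* and *Sox2*, *Pou5f1* was called lower (log2 ratio -1.76, after the GC correction -1.06). The 7 factors, the other formative genes and the naive genes each had medians between -0.39 and 0.02 by library totals. After the GC correction their medians were 0.44, 0.25 and -0.10, beside -0.04 over all genes. None of these lists moved as a whole in a single direction by library totals.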

How the data were processed

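RNA was sequenced from 1 shLuc and 1 shKdm5b culture. Per the submitters' processing notes, CASAVA 1.0, Bowtie 0.12.7 and the mouse build mm8 were used; the counting program and its use of strand are not given in the sources used here. The authors deposited, for 27405 RefSeq entries, the read count and the RPKM, and the positions of mapped reads. The authors' RPKM is the count scaled to transcript length and library total, and counts were used as deposited.

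Of several entries of a symbol, that with the highest mean RPKM was kept. Ratios were taken as log2(RPKM + 0.1), which understates changes of low genes, and 95% intervals of read ratios by the exact Clopper-Pearson method. Corrections used lowess curves (fraction 0.3, statsmodels 0.14.6) on GENCODE M21 transcripts matched by accession. edgeR 4.0.16 (R 4.3.3) gave TMM factors and, as alternatives, an exact test at assumed dispersions of 0, 0.04 and 0.16 with an FDR below 0.001, which compares the pair of libraries only. Python 3.11.15 was used. The steps were tested on simulated data. The members and lists were chosen with earlier results of these data known. Named genes were the 7 factors, their paralogues above an RPKM of 1, the other formative genes that were called, and *Kdm5b*, *Pou5f1*, *Sox2* and *Nanog*; exceptions are stated, and 1 further gene under this rule, though counted, is not reported here. Other time points were not analysed here.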

Additional observations from a re-analysis of the deposited data

How the results depend on the processing

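Against 0 factors called higher by library totals, 1 was called after scaling to a median log2 ratio of 0 and 2 after TMM scaling. With the GC correction 3 were called, and 3 with the correction for GC and length. Over all genes these settings called 21.9%, 23.9%, 18.0% and 14.5% higher. They called 25.5%, 23.4%, 18.8% and 17.4% lower. Compared with 1 called lower (*Sall2*), 0 were called after each of these 4 settings, at a fold change above 2, and with the exact test at a dispersion of 0.04 or 0.16. Of the other formative and primed genes, 4 were called higher by library totals, 8 after the GC correction and 0 at a dispersion of 0.04 or 0.16. Of the same genes 6 were called lower, 2 at a fold change above 2 and 0 at a dispersion of 0.04 or 0.16. Over all genes these dispersions left 111 higher and 173 lower, and 0 higher and 1 lower. The median log2 ratio of the factors was 0.02 by library totals, 0.19 with the median scaling, 0.24 with TMM, 0.094 with scaling to the 75th percentile, 0.44 with the GC correction and 0.46 with the correction for GC and length. At a fold change above 2, 6.27% of all genes were called higher and 16.5% lower. Another pseudocount (1 or 0.01) did not change the calls of the 7 factors. The choice among entries could not, since each has 1 entry. *Foxd3* changed sign after both GC corrections, and the other 6 factors kept theirs under every setting tried. The cause was not tested.

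No paired analysis was possible because shLuc and shKdm5b ES cells are represented by 1 library each. Counting distinct read positions once per gene, and the profile of reads along transcripts, were planned and not run, since no annotation of build mm8 was used here. Depth did not limit the 7 factors, which had at least 2986 reads in each library. With 1 library each, the spread between cultures is unknown.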
